A study of Mus musculus with 18 samples.

Results

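The interferon-stimulated antiviral genes described here are 39 genes that encode sensors of viral RNA, transcription factors of the interferon pathway and antiviral effector proteins. They were chosen as a list of gene symbols, and all 39 were found among the 23420 gene symbols of the count tables, 38 by their symbol and Ifi27 by an older one. Enough reads for a test were present for 37 of them, and Zbp1 and Oas2 stayed below the minimum. Of the 37, Oas1a, Oasl1, Trim30a and Ifi44 reached that minimum only through the vehicle-treated mice, where they were high, so their changes were partly set by that selection. The other 33 tested genes also reached it without these mice.

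Retinal RNA was sequenced from 9 wild-type BALB/cJ mice, an albino strain that carries a light-sensitive variant of Rpe65, the isomerase of the visual cycle. The animals were young adults of both sexes, and each library came from 1 mouse, with 3 mice in each group. Naïve mice had neither light exposure nor treatment. Vehicle-treated mice were exposed to white light of 15000 lux for 1 h and received daily intraperitoneal DMSO from the day before the light. TD139-treated mice had the same light exposure and daily TD139 at 15 mg/kg in DMSO. TD139 is an inhibitor of galectin-3, a galactoside-binding lectin of activated phagocytes. The sample labels give 4 days for the light-exposed mice of both groups and no day for the naïve mice. A naïve group with DMSO injections, or a group with TD139 and no light, was not analysed here, so effects of light and of injection cannot be told apart between naïve and vehicle-treated mice.

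Cells that sense foreign or misplaced nucleic acid secrete type I interferons, which bind the receptor pair IFNAR1 and IFNAR2 on the same or neighbouring cells. The kinases JAK1 and TYK2 then activate transcription factors, STAT2 among them, which join IRF9 and bind the interferon-stimulated response element (ISRE) in the promoters of a large set of target genes. Many of these targets are themselves sensors or factors of the pathway, and some are also expressed at a basal level without interferon. In the retina, microglia are known as a strong source of interferon-responsive transcripts, and other retinal cells can express them as well.

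Between 26171887 and 30201517 reads per mouse were counted on genes, and a count of 3, below which a gene was taken as not detectable, stood for 0.101 to 0.118 CPM (a count scaled to library size with TMM factors). This floor covers counting error only. Reads outside annotated genes were most frequent in the TD139-treated group, at 21.3 to 22.8%, followed by the naïve group at 19.1 to 19.9% and the vehicle-treated group at 16.5 to 19.4%. The 8 rod markers summed to 70811 to 80948 CPM in naïve, 41231 to 57453 CPM in vehicle-treated and 58015 to 72172 CPM in TD139-treated mice. Of the 8, 6 were called lower in vehicle-treated than in naïve mice, beside 2.89% of all genes, and 4 higher with TD139, beside 17.2%. Lens crystallin genes and other lens markers reached 9034 CPM in vehicle-treated mouse 2 and at most 388.1 CPM in any other mouse. The retina is bulk tissue, and more cells of a type and more RNA per cell cannot be told apart.

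The sequences in front of 6 of these genes are shown first, because they hold matches to the core of the element through which the pathway acts. The core of the ISRE, GAAA and GAAA with any 2 bases between them, was searched on both strands in the 250 bases before each transcription start. The set of RefSeq promoter windows used (GRCm38.p6) had an entry for 30 of the 39 genes. The core was found in 9 of the 30 (30%) and in 936 of 27025 genes with an entry (3.46%). The 9 genes were Bst2, Ifit1, Ifit3, Ifitm2, Isg15, Oas1a, Rsad2, Stat2 and Trim30a. The 6 printed below had the lowest adjusted p-values of the 9 for vehicle-treated against naïve mice, and of them only Oas1a and Rsad2 were under 0.05. Each runs 5′ to 3′ in the direction of transcription and ends before the start. Capitals mark the core, and joined capitals mark cores that overlap each other.
Oas1a, chr5:120907526-120907575, minus strand: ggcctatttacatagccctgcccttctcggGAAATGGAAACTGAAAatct
Rsad2, chr12:26456533-26456602, minus strand: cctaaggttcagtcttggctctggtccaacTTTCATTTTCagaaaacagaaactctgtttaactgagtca
Ifit1, chr19:34640755-34640843, plus strand: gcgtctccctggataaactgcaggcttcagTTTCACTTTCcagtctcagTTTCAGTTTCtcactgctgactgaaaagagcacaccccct
Bst2, chr8:71537557-71537632, minus strand: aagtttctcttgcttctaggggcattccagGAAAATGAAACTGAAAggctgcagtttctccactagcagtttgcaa
Isg15, chr4:156200845-156200926, minus strand: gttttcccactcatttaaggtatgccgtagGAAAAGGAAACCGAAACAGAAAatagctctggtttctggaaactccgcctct
Ifit3, chr19:34583343-34583446, plus strand: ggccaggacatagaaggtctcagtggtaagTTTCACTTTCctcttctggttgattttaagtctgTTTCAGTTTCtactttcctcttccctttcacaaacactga

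Isg15 had 3 overlapping cores between 78 and 57 bases before the start, Oas1a and Bst2 had 2 overlapping cores each, and Ifit1 and Ifit3 had 2 separate ones. In Oas1a the cores lay next to the start, from 20 to 5 bases before it. The gamma-activated site, TTC and GAA with any 3 bases between them, an element of the response to type II interferon, was present in 6 of the 30 genes (20%) and in 8.13% of all genes with an entry. It was found in Eif2ak2, Irf1, Ifit2, Isg20, Oas1a and Bst2, and in Bst2 its last 3 bases lay inside the first of the ISRE cores. These matches are letters in a window of fixed length and are not measured binding sites.

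**Figure D1:**
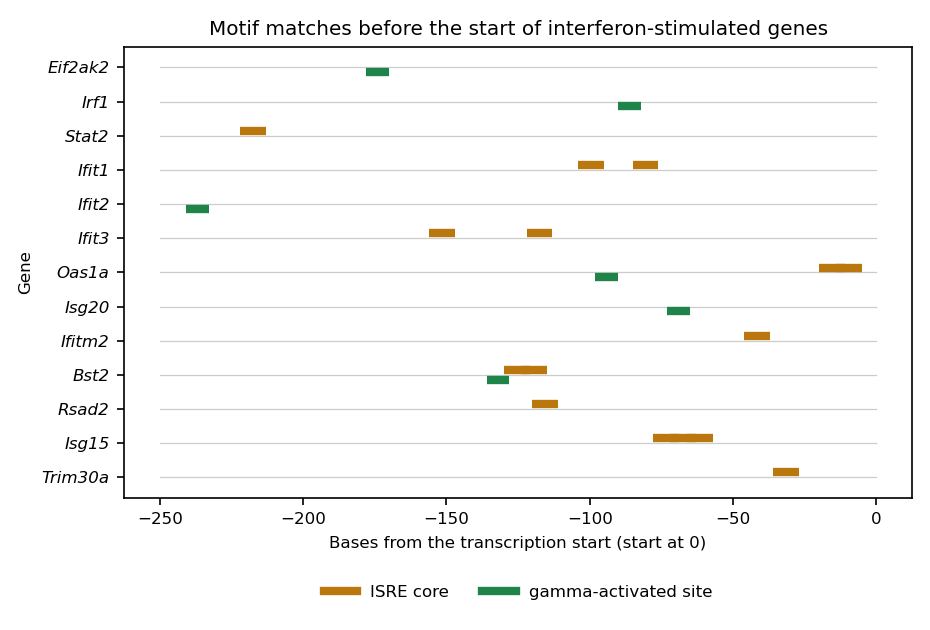
Positions of the ISRE core and of the gamma-activated site in the 250 bases before the start of the 13 genes that hold either motif. The x axis gives the distance from the transcription start in bases, each grey line is 1 gene, and coloured bars are matches on either strand; Isg15, Oas1a and Bst2 show bars that touch because their cores overlap.

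The estimated level of 36 of the 37 tested genes was higher in light-exposed, vehicle-treated retinas than in naïve retinas, but 19 of the 37 were not called. Of the 37 tested genes, edgeR called 18 higher and 0 lower (adjusted p under 0.05), beside 4.91% higher and 2.89% lower among all 15196 genes tested. An unadjusted p under 0.05 was reached by 31 of the 37, and by 27.6% of all genes. The median log2 fold change was 1.63 over the 37 genes and -0.00 over all genes tested. Among the 33 genes that did not need the vehicle-treated mice to be tested, 16 were called higher and the median was 1.43. For 28 of the 37 genes the lowest vehicle-treated mouse was above the highest naïve mouse, as it was for 16.7% of all genes. A fold change of 4 or more, 2 on the log2 scale, was reached by 8 called genes, 6 of them among the 33, beside 1.24% of all genes.

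**Figure D2:**
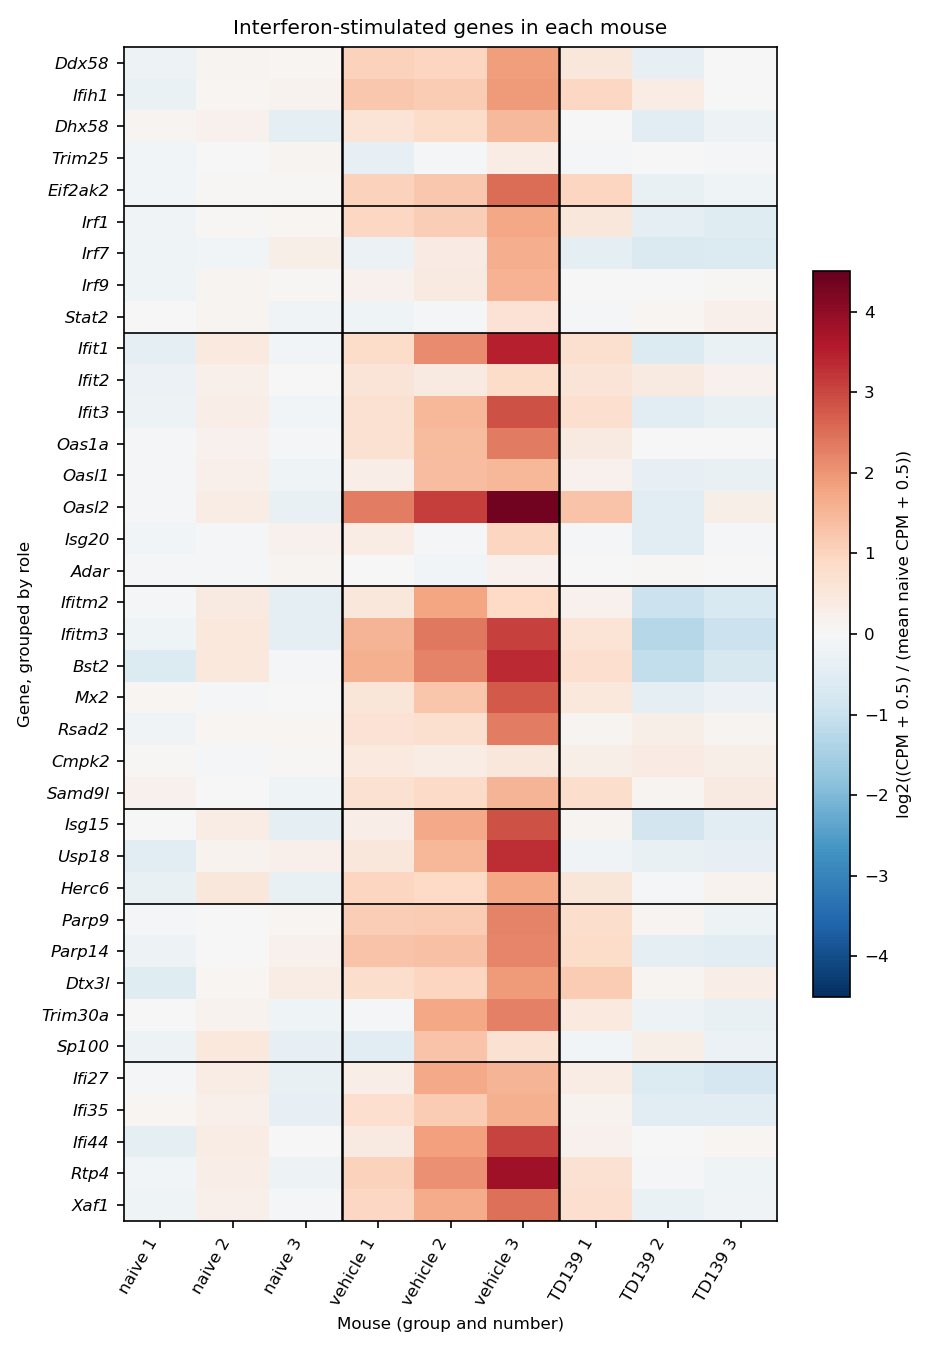
Level of the 37 tested genes in each of the 9 mice as log2 of CPM + 0.5 over the mean naïve CPM + 0.5, with genes in rows grouped by role and mice in columns. Red fills the vehicle-treated columns and deepens in vehicle-treated mouse 3, TD139-treated mouse 1 is pale red for most genes, and Trim25, Stat2 and Adar stay near white in nearly all columns.

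These calls rested on few mice. Vehicle-treated mouse 3 was the highest of its group for 34 of the 37 genes, with a median of 2.14 times (range 0.76 to 5.47) the mean of the other two mice. The median gene lay at log2 values of 0.64, 1.2 and 1.92 above the naïve mean in vehicle-treated mice 1, 2 and 3, so that the group was spread over a wide range and yet every mouse lay above the naïve ones, at -0.14, 0.17 and -0.07. Without vehicle-treated mouse 3, edgeR called 0 genes, with 31 of 37 at an unadjusted p under 0.05. It also called 0 without naïve mouse 1, 2 or 3, with 30, 33 and 31 of 39 tested genes at that unadjusted level, while calls of higher genes over the whole table went from 746 to 60, 1 and 152 without naïve mice 1, 2 and 3 and to 78 without vehicle-treated mouse 3. Without vehicle-treated mouse 1 or 2, 16 genes were called in either fit. The median log2 fold change stayed between 1.26 and 1.89 over the 9 fits that left out 1 mouse. None of the 18 genes was called in more than 5 of these 9 fits. DESeq2 called 31 genes higher on all mice, and its calls of higher genes rose over the whole table too, to 8.92%.

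TD139-treated retinas held less RNA of most of these genes than vehicle-treated retinas. Of the 37 genes, 27 were called lower and 0 higher, beside 16.2% lower and 17.2% higher among all genes, since many genes of other kinds changed in this comparison too. The median log2 fold change was -1.61 over the 37 genes and -0.02 over all genes tested. Among the 33 genes that did not need the vehicle-treated mice to be tested, 23 were called lower with a median of -1.45. All TD139-treated mice lay below all vehicle-treated mice for 25 of the 37 genes, against 25.4% of all genes. A log2 fold change of -2 or less was reached by 13 called genes, 9 of them among the 33, beside 1.53% of all genes. The vehicle-treated mice enter both comparisons, so a high value in 1 of them raises the first and lowers the second.

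Without vehicle-treated mouse 3, 11 genes were called lower, and without TD139-treated mouse 2 or 3 only 4 were, in each case with a median between -1.43 and -1.16. Lower calls over the whole table fell in these fits as well, from 2455 to 1287, 757 and 867 genes, or 8.38%, 4.9% and 5.62%. Ddx58, Dhx58, Irf1 and Ifi35 were called in all 9 fits that left out 1 mouse. Without the other mice the number ranged from 26 to 30.

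Between TD139-treated and naïve mice edgeR called 0 of the 37 genes, with 2 at an unadjusted p under 0.05 (Cmpk2 and Ifit2, both higher), a level that 29.6% of all genes reached in either direction. DESeq2 called 0, and limma voom called Cmpk2 higher, at a log2 fold change of 0.39 and an adjusted p of 0.0142, beside 18.8% of all genes called higher by that tool. With edgeR, 2.72% of all genes were called higher and 2.38% lower. These calls over all genes were not stable. They fell to 0 in both directions with the replicate number as a block or with an offset for transcript length and GC content. They rose to 1484 and 1190 genes without naïve mouse 3. Over the 37 genes the median log2 fold change was 0.07, and 22 were above 0 and 15 below. This direction was not stable, since limma voom gave 9 above and 28 below with a median of -0.29, and leaving out TD139-treated mouse 1 gave 13 above and 26 below with a median of -0.21. The intervals were wide, so that equal levels are not shown: the 95% interval ran from -0.97 to 2.2 for Oasl2, from -1.79 to 1.2 for Ifitm3 and from -0.53 to 0.74 for Ddx58. TD139-treated mouse 1 was the highest of its group for 29 of the 37 genes, and its median gene lay at 0.45 on the log2 scale, above the naïve mice and below the vehicle-treated ones, with mice 2 and 3 at -0.33 and -0.18.

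**Figure D3:**
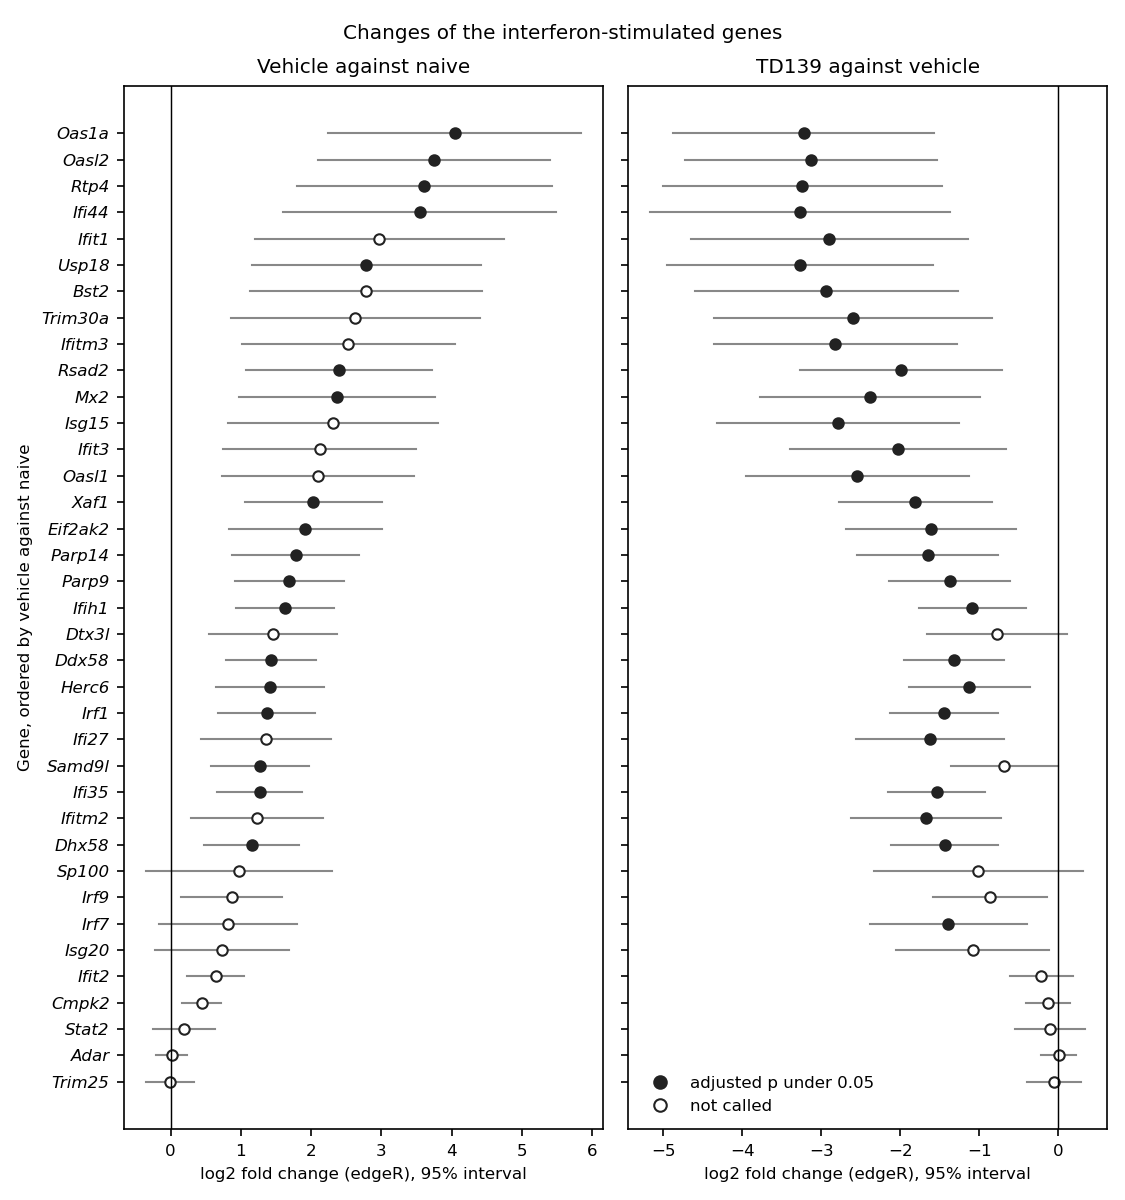
Log2 fold change (point) with its 95% interval (line) from edgeR for the 37 tested genes, ordered by the vehicle against naïve value, with filled points for an adjusted p under 0.05. On the left, 36 of 37 points lie right of 0 and 18 are filled; on the right, 36 of 37 lie left of 0 and 27 are filled, and Trim25, Adar and Stat2 sit near 0 on both sides.

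The counts by role given next stand beside 4.91% of all genes called higher in vehicle-treated mice and 16.2% called lower with TD139. Each role holds 3 to 8 tested genes, and roles were not compared by a test. Of 5 tested sensors of viral RNA and their regulators, 4 were called higher in vehicle-treated mice and 4 lower with TD139. RIG-I, encoded by Ddx58, and MDA5, encoded by Ifih1, are helicases that detect viral RNA in the cytoplasm, and LGP2, encoded by Dhx58, tunes both. Ddx58 was at 4.84, 6.29 and 6.12 CPM in naïve mice, at 12.3, 11.8 and 22.3 CPM in vehicle-treated mice and at 8.37, 4.38 and 5.81 CPM in TD139-treated mice. The vehicle-treated mice did not overlap with either other group, and TD139-treated mouse 1 was the only treated mouse above the naïve range. The log2 fold change was 1.43 ± 0.29 (SE, adjusted p = 0.0236) for vehicle-treated against naïve mice and -1.32 ± 0.29 (adjusted p = 0.00921) for TD139-treated against vehicle-treated mice.

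Ifih1 was at 2.11, 2.98 and 3.11 CPM in naïve, 6.97, 6.71 and 11.8 CPM in vehicle-treated and 5.67, 3.55 and 2.76 CPM in TD139-treated mice. It had the lowest adjusted p of the 37 genes for vehicle-treated against naïve mice, 0.0214, at a log2 fold change of 1.63 ± 0.32, and a log2 fold change of -1.09 ± 0.31 with TD139 (adjusted p = 0.0218). Dhx58 was at 1.83 to 3.09 CPM in naïve, 4.22 to 8.16 CPM in vehicle-treated and 1.74 to 2.56 CPM in TD139-treated mice, and was called in both comparisons at adjusted p-values of 0.0442 and 0.0083. An antisense transcript overlaps Dhx58 in the annotation, and the strand setting of the counting is not given in the sources used here.

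PKR, the kinase encoded by Eif2ak2 that stops translation on double-stranded RNA, was at 2.46, 2.86 and 2.82 CPM in naïve, 6.07, 6.88 and 17.8 CPM in vehicle-treated and 5.71, 2.05 and 2.33 CPM in TD139-treated mice. The log2 fold changes were 1.92 ± 0.49 (adjusted p = 0.0438) and -1.61 ± 0.48 (adjusted p = 0.0292). Trim25, the ubiquitin ligase linked to RIG-I signalling, was the flat gene of this group, at 33.4 to 39.3 CPM in naïve, 27.8 to 46.1 CPM in vehicle-treated and 34.1 to 35.9 CPM in TD139-treated mice. Its log2 fold change for vehicle-treated against naïve mice was -0.00 ± 0.16 (adjusted p = 0.989), the only 1 of the 37 below 0, and above 0 when library size replaced TMM. Zbp1, a sensor of left-handed nucleic acid, was not tested. Its reads numbered 7, 5 and 0 in naïve, 7, 39 and 101 in vehicle-treated and 5, 5 and 5 in TD139-treated mice, so that vehicle-treated mouse 1 lay at the naïve level.

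Of 4 transcription factors of the pathway, 1 was called higher in vehicle-treated mice and 2 lower with TD139. Irf1, a factor that activates interferon and its targets, was at 6.37, 7.31 and 7.58 CPM in naïve mice. It was at 14.1, 16 and 24.9 CPM in vehicle-treated and at 10.4, 5.04 and 4.70 CPM in TD139-treated mice, with no overlap between the vehicle-treated mice and either other group. The log2 fold changes were 1.37 ± 0.31 (adjusted p = 0.0297) and -1.45 ± 0.31 (adjusted p = 0.00903). A protein-coding gene model lies across part of Irf1 on the opposite strand.

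Irf7, the factor that amplifies type I interferon, was at 16.9, 17.9 and 23.4 CPM in naïve, 16.1, 25 and 61.2 CPM in vehicle-treated and 14.5, 12.1 and 12.4 CPM in TD139-treated mice. Only vehicle-treated mouse 3 stood far above the naïve range, and mouse 1 was below it. The log2 fold change was 0.81 ± 0.43 (adjusted p = 0.258) against naïve mice and -1.39 ± 0.43 (adjusted p = 0.04) with TD139, a call lost without vehicle-treated mouse 3 or any TD139-treated or naïve mouse. All TD139-treated mice were below all naïve mice for Irf7, with a log2 fold change of -0.58 (adjusted p = 0.409). It was the only 1 of the 37 genes with this order, which 2557 of all 15196 genes had.

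Irf9 and Stat2, both partners in the complex that binds the ISRE, showed the same single mouse. Irf9 was at 21.7, 27.1 and 25.6 CPM in naïve, 28.2, 33.4 and 74.4 CPM in vehicle-treated and 24.8, 24.5 and 25.5 CPM in TD139-treated mice. Stat2 was at 51.1 to 62.6 CPM in naïve, 50.1, 54.3 and 90.7 CPM in vehicle-treated and 54.6 to 66.4 CPM in TD139-treated mice. Neither was called in any of the comparisons, with adjusted p-values of 0.118 and 0.0635 for Irf9 and 0.568 and 0.713 for Stat2.

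Of 8 tested IFIT, OAS and other effectors that act on RNA, 2 were called higher in vehicle-treated mice and 5 lower with TD139. Oas1a, among both the 2 and the 5, and Oasl1, among the 5, were tested only through the vehicle-treated mice. OAS enzymes make 2'-5' oligoadenylate to activate RNase L, and OASL proteins are their relatives. Oasl2 was at 2.42, 3.28 and 1.87 CPM in naïve, 14.3, 25.9 and 61.4 CPM in vehicle-treated and 6.86, 1.63 and 3.12 CPM in TD139-treated mice. The log2 fold changes were 3.75 ± 0.71 (adjusted p = 0.0273) and -3.13 ± 0.68 (adjusted p = 0.014). The lowest vehicle-treated mouse was above the highest mouse of both other groups.

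Oas1a had the highest log2 fold change of the 37 genes for vehicle-treated against naïve mice, 4.04 ± 0.82 (adjusted p = 0.0235). It rested on reads numbering 1, 4 and 1 in the naïve, 12, 30 and 72 in the vehicle-treated and 7, 2 and 2 in the TD139-treated group, so its size is imprecise. With TD139 the log2 fold change was -3.22 ± 0.75 (adjusted p = 0.0109). Of the 50-base windows of its longest transcript, 57.6% also occur in the related gene Oas1g, and how reads were split between both genes is uncertain. Oas2, another member of the family, had 2, 6 and 5 reads in naïve, 3, 35 and 32 in vehicle-treated and 8, 2 and 6 in TD139-treated mice and was not tested. Oasl1 was at 0.183 to 0.414 CPM in naïve, 0.465 to 1.71 CPM in vehicle-treated and 0.104 to 0.408 CPM in TD139-treated mice, and was called in the TD139 comparison alone (log2 fold change -2.54, adjusted p = 0.0142), against an adjusted p of 0.0611 for vehicle-treated against naïve mice.

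The IFIT proteins bind viral RNA that lacks the host cap. Ifit1 was at 0.768, 1.81 and 1.06 CPM in naïve, 2.57, 7.03 and 19.0 CPM in vehicle-treated and 2.30, 0.626 and 0.908 CPM in TD139-treated mice, with vehicle-treated mouse 3 far above mouse 1. Its log2 fold change of 2.97 ± 0.77 against naïve mice missed the threshold (adjusted p = 0.0529), and that of -2.90 ± 0.77 with TD139 passed it (adjusted p = 0.0222). Ifit3 had log2 fold changes of 2.12 (adjusted p = 0.0654) and -2.03 (adjusted p = 0.0318), and 51.2% of its 50-base windows are shared with Ifit3b.

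Ifit2 lies near Ifit1 and Ifit3 on chromosome 19, at 34550694 to 34576419 in GRCm38, and differed from both in its values. It was at 7.91, 11.3 and 9.75 CPM in naïve, 14.7, 12.9 and 17.6 CPM in vehicle-treated and 14.8, 13 and 11.1 CPM in TD139-treated mice. Its log2 fold changes were 0.64 ± 0.18 (adjusted p = 0.0541) and -0.21 ± 0.18 (adjusted p = 0.372), and the difference between these genes was not tested.

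Isg20, an RNA exonuclease, was at 0.383 to 1.95 CPM in the 9 mice and was not called. Adar, the enzyme that edits adenosine to inosine in double-stranded RNA, was the most abundant of the 39 genes per transcript length in naïve retina, at 25.7 CPM per kb. It was at 143, 146 and 166 CPM in naïve, 150, 138 and 174 CPM in vehicle-treated and 154, 156 and 154 CPM in TD139-treated mice. The groups overlapped, with log2 fold changes of 0.02 ± 0.10 (adjusted p = 0.915) and 0.01 ± 0.10 (adjusted p = 0.957). Adar overlaps Chrnb2 on the opposite strand over 7252 bases.

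The membrane and replication effectors act at the cell surface, in endosomes or on viral genomes, and of 7 tested, 3 were called higher in vehicle-treated mice and 5 lower with TD139. Ifitm3, which blocks fusion of viruses in endosomes, was at 7.07, 11.6 and 5.94 CPM in naïve, 24.9, 45.0 and 72.0 CPM in vehicle-treated and 13, 3.10 and 3.99 CPM in TD139-treated mice. The vehicle-treated mice lay apart from both other groups. The log2 fold change against naïve mice was 2.53 ± 0.65 (adjusted p = 0.0584), short of the threshold, and with TD139 it was -2.82 ± 0.66 (adjusted p = 0.0175).

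Bst2, or tetherin, which holds budding virions at the cell surface, was at 1.57, 3.96 and 2.53 CPM in naïve, 9.15, 14.5 and 31.8 CPM in vehicle-treated and 4.85, 0.974 and 1.42 CPM in TD139-treated mice. It followed the same order, with log2 fold changes of 2.78 ± 0.72 (adjusted p = 0.0546) and -2.93 ± 0.72 (adjusted p = 0.0188). Ifitm2 was highest in vehicle-treated mouse 2, at 19.8 CPM beside 7.90 and 10.5 CPM in mice 1 and 3, and was called with TD139 alone (log2 fold change -1.67, adjusted p = 0.0162). An overlapping gene model on the same strand shares 36.1% of its 50-base windows, and 48.5% are shared with any gene.

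Rsad2, the gene of viperin, makes a nucleotide that ends viral RNA chains, and Cmpk2 stands beside it on chromosome 12 and encodes a kinase that supplies its substrate. Rsad2 was at 0.230, 0.377 and 0.366 CPM in naïve, 0.786, 0.847 and 3.53 CPM in vehicle-treated and 0.408, 0.487 and 0.395 CPM in TD139-treated mice. Its log2 fold changes were 2.39 ± 0.60 (adjusted p = 0.0377) and -1.99 ± 0.58 (adjusted p = 0.024). Cmpk2 was at 12.1, 10.8 and 12 CPM in naïve, 16, 14.7 and 16.9 CPM in vehicle-treated and 14.2, 15.2 and 14.2 CPM in TD139-treated mice, with log2 fold changes of 0.44 ± 0.13 (adjusted p = 0.0537) and -0.13 ± 0.13 (adjusted p = 0.448). All TD139-treated mice were above all naïve mice for both genes, 2 of the 37, beside 2332 of all 15196 genes. For Rsad2 this rested on 11, 14 and 10 reads in TD139-treated and 6, 10 and 10 reads in naïve mice. Its log2 fold change between these groups was 0.40 (adjusted p = 0.716).

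Mx2, a dynamin-like GTPase, is annotated as a polymorphic pseudogene in this genome and had 0.716 to 0.883 CPM in naïve, 1.39, 2.61 and 8.40 CPM in vehicle-treated and 0.487 to 1.3 CPM in TD139-treated mice. It was called in both comparisons (adjusted p = 0.0476 and 0.0177). Samd9l, an antiviral restriction factor, was called for vehicle-treated against naïve mice (log2 fold change 1.27 ± 0.32, adjusted p = 0.0371) but not with TD139 (-0.68 ± 0.31, adjusted p = 0.108), where TD139-treated mouse 1, at 3.33 CPM, lay inside the vehicle-treated range of 3.04 to 5.78 CPM.

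The ISG15 system joins a ubiquitin-like protein to other proteins through the ligase encoded by Herc6 and removes it through Usp18, which also dampens the interferon receptor. Of these 3 genes, 2 were called higher in vehicle-treated mice and all 3 lower with TD139. Isg15 was at 1.34, 1.88 and 0.879 CPM in naïve, 1.82, 5.54 and 13 CPM in vehicle-treated and 1.56, 0.556 and 0.829 CPM in TD139-treated mice. Vehicle-treated mouse 1 lay within the naïve range, and the log2 fold change of 2.31 ± 0.66 was not called (adjusted p = 0.0628), whereas that with TD139 was (-2.79 ± 0.68, adjusted p = 0.0149). Usp18 was at 0.461, 1.02 and 1.06 CPM in naïve, 1.43, 3.28 and 12.9 CPM in vehicle-treated and 0.704, 0.556 and 0.553 CPM in TD139-treated mice.

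Usp18 was called in both comparisons, with log2 fold changes of 2.79 ± 0.73 (adjusted p = 0.0487) and -3.27 ± 0.75 (adjusted p = 0.0123). Its level in vehicle-treated mouse 3 was 5.47 times the mean of the other two vehicle-treated mice, the highest such ratio of the 37 genes. Herc6 was at 1.73, 3.50 and 1.76 CPM in naïve, 4.97, 4.80 and 8.87 CPM in vehicle-treated and 3.63, 2.23 and 2.69 CPM in TD139-treated mice, and was called in both (adjusted p = 0.0368 and 0.0295). A processed transcript on the same strand shares 23.8% of its 50-base windows.

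Parp9, Dtx3l and Parp14 lie close together on chromosome 16 and act in ADP-ribosylation. Together with Trim30a and Sp100 they make a group of 5, of which 2 were called higher in vehicle-treated mice and 3 lower with TD139. Trim30a, among the 3, was tested only through the vehicle-treated mice. Parp9 was at 4.84, 4.86 and 5.28 CPM in naïve, 11.2, 11.7 and 25.4 CPM in vehicle-treated and 8.89, 5.53 and 4.23 CPM in TD139-treated mice, with log2 fold changes of 1.69 ± 0.35 (adjusted p = 0.0253) and -1.37 ± 0.35 (adjusted p = 0.0151). Parp14 had log2 fold changes of 1.78 ± 0.40 (adjusted p = 0.0312) and -1.65 ± 0.40 (adjusted p = 0.014). Dtx3l, whose protein is the ubiquitin ligase partner of PARP9, was not called in either (adjusted p = 0.0546 and 0.149), and TD139-treated mouse 1, at 6.86 CPM, was above vehicle-treated mice 1 and 2, at 5.25 and 6.0 CPM. Parp9 and Dtx3l overlap on opposite strands over 682 bases.

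Trim30a, a ubiquitin ligase that restrains inflammatory signalling, was at 0.286, 2.29 and 3.53 CPM in vehicle-treated mice, with mouse 1 inside the naïve range of 0.220 to 0.414 CPM, and was called lower with TD139 (log2 fold change -2.60, adjusted p = 0.0303). Sp100, a nuclear body protein, was not called, at 0.476 to 1.24 CPM in naïve, 0.393, 2.61 and 1.51 CPM in vehicle-treated and 0.553 to 1.01 CPM in TD139-treated mice. Both genes had their lowest vehicle-treated value in mouse 1.

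The last 5 genes have less defined roles, and 4 were called higher in vehicle-treated mice and all 5 lower with TD139. Ifi44, among both the 4 and the 5, was tested only through the vehicle-treated mice. Ifi35 had the lowest adjusted p of the 37 genes for TD139-treated against vehicle-treated mice, 0.00598, at a log2 fold change of -1.54 ± 0.28. It was at 7.30, 8.17 and 5.17 CPM in naïve, 11.9, 15.7 and 22.1 CPM in vehicle-treated and 7.71, 4.63 and 4.78 CPM in TD139-treated mice. The vehicle-treated mice did not overlap with either other group, and the log2 fold change against naïve mice was 1.27 ± 0.28 (adjusted p = 0.026).

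Rtp4, a Golgi chaperone of receptors, was at 0.422, 0.753 and 0.366 CPM in naïve, 1.57, 3.67 and 13.7 CPM in vehicle-treated and 1.11, 0.487 and 0.395 CPM in TD139-treated mice. It had log2 fold changes of 3.61 ± 0.81 (adjusted p = 0.0324) and -3.24 ± 0.78 (adjusted p = 0.0149), and vehicle-treated mouse 3 stood far above the others. Xaf1, a factor that promotes apoptosis, was at 1.92 to 2.79 CPM in naïve, 4.79, 8.40 and 14.9 CPM in vehicle-treated and 1.77 to 4.22 CPM in TD139-treated mice (adjusted p = 0.0273 and 0.0131). Ifi44 rested on 1, 11 and 6 reads in naïve and 13, 60 and 161 in vehicle-treated mice, with log2 fold changes of 3.54 ± 0.87 (adjusted p = 0.0392) and -3.27 ± 0.85 (adjusted p = 0.0173).

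Ifi27, the gene of a small hydrophobic protein, was at 5.39 to 8.74 CPM in naïve, 8.72, 23.4 and 20.9 CPM in vehicle-treated and 3.91 to 8.89 CPM in TD139-treated mice. It was called with TD139 (log2 fold change -1.63 ± 0.42, adjusted p = 0.0177) and not against naïve mice (adjusted p = 0.0741). Vehicle-treated mouse 1 lay inside the naïve range.

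**Figure D4:**
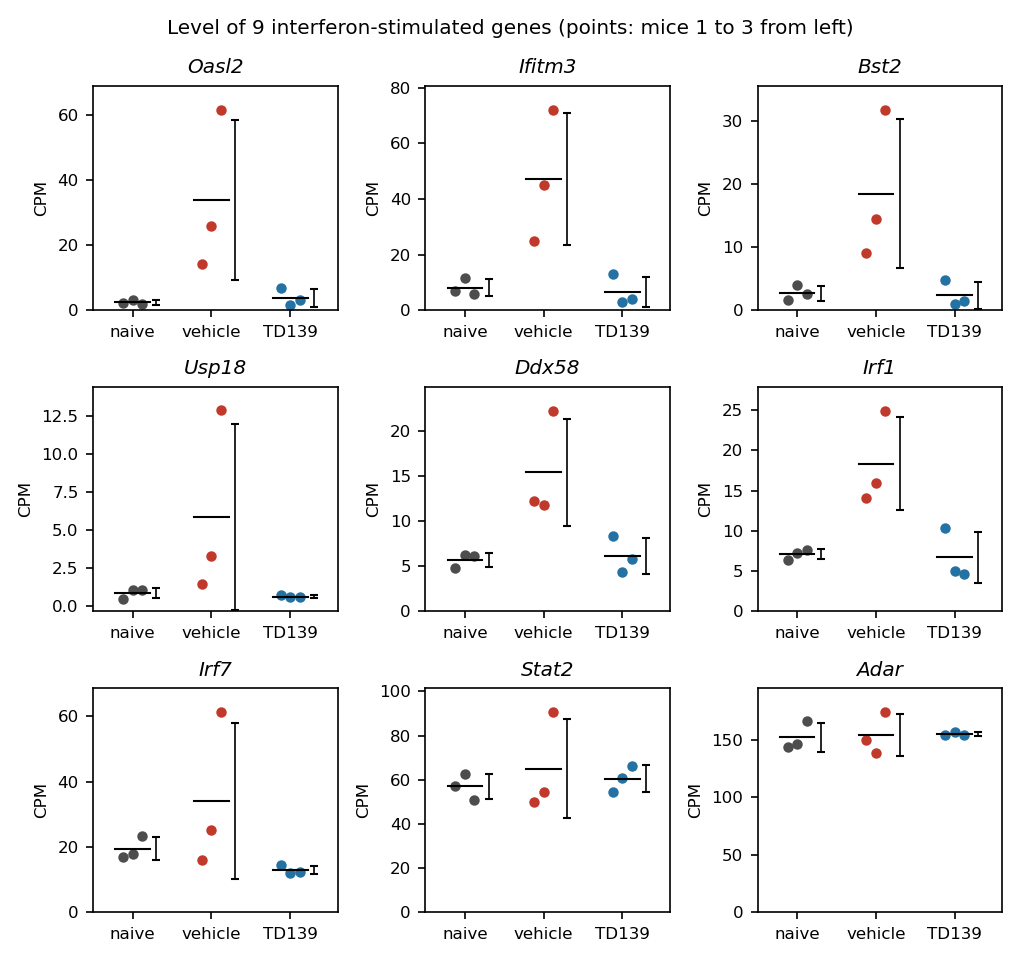
CPM of 9 of the genes in each mouse, with points for mice 1 to 3 from left to right in each group, a horizontal line for the mean and a bar to its right for the SD (n = 3); each panel has its own linear axis. Vehicle-treated mouse 3 is the highest point of all panels, Oasl2, Ifitm3, Bst2, Usp18, Ddx58 and Irf1 have vehicle-treated mice apart from the other groups, and Stat2 and Adar overlap.

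The levels of the 39 genes in naïve retina, per kb of the longest annotated transcript, spanned from 25.7 CPM per kb for Adar to 0.0399 CPM per kb for Oas1a. Adar did not overlap with Stat2, the next gene, at 11.6 to 14.2 CPM per kb, while Stat2 overlapped with Ifitm3, at 8.75 to 17.1 CPM per kb. The range of Trim25, 5.97 to 7.04, overlapped with that of Irf9, 5.62 to 7.01 CPM per kb. Of these 5 genes, none was called higher in vehicle-treated mice, but Ifitm3 and Irf9 had all vehicle-treated above all naïve mice. The 5 leave out Ifitm2 and Ifi27, at ranks 4 and 5, which were not called higher either, while Ifi35, at rank 9, was. The 9 genes with an ISRE core in the window had a median log2 fold change of 2.39 for vehicle-treated against naïve mice, with 2 called, and of -2.60 with TD139, with 8 called. The 21 genes with a window and no core had medians of 1.37 and -1.13, with 10 and 12 called. The 7 tested genes with no window in the promoter set used had medians of 1.78 and -1.65, with 6 and 7 called, the highest shares of the 3 sets. Oas1a and Trim30a in the first set and Oasl1 and Ifi44 in the second were tested only through the vehicle-treated mice, and differences between the sets were not tested. Stat2 was the gene with a core that was called in neither comparison, at log2 fold changes of 0.19 and -0.10.

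No interferon transcript was seen above the floor. Of 21 genes of type I, II and III interferons, including Ifnb1 and Ifng, 19 had 0 reads in all 9 mice. Ifna4 had 1 read in vehicle-treated mouse 2, and Ifna16 had at most 3 reads in any mouse. A count of 0 allows up to 0.101 to 0.118 CPM in these libraries, so short or rare expression at the time of sampling was not detectable at this depth.

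The counts of the lists that follow stand beside 4.91% of all genes called higher and 2.89% lower in vehicle-treated mice, and 17.2% higher and 16.2% lower with TD139. Of 9 genes for interferon receptors and their kinases, the vehicle-treated group had 2 called higher than in naïve mice, and 3 were called lower with TD139. Ifnar2, a chain of the type I receptor, was at 9.52, 8.89 and 7.14 CPM in naïve, 15.7, 15.9 and 20.9 CPM in vehicle-treated and 12.5, 5.74 and 6.68 CPM in TD139-treated mice. The vehicle-treated mice lay above all others, and the log2 fold changes were 1.04 (adjusted p = 0.0421) and -1.07 (adjusted p = 0.014). Il10rb, a chain of the type III receptor, was called in both comparisons too, at 1.05 (adjusted p = 0.0216) and -0.79 (adjusted p = 0.015). Ifnar1, the other type I chain, stayed at 64.6 to 74.9 CPM and Jak1 at 126 to 187 CPM in the 9 mice, and neither was called.

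Among 13 tested genes of nucleic acid sensing upstream of interferon, 3 were called higher in vehicle-treated mice, and 5 were called lower and 1 higher with TD139. Tlr7 (adjusted p = 0.0127 and 0.005), an endosomal sensor of single-stranded RNA, was at 0.0366 to 0.115 CPM in naïve, 1.64, 0.600 and 1.34 CPM in vehicle-treated and 0.0348 to 0.0741 CPM in TD139-treated mice, at or near the floor in the naïve and TD139-treated groups, and it reached the minimum for a test only through the vehicle-treated mice. Its adaptor Myd88 had log2 fold changes of 0.85 (adjusted p = 0.0447) and -0.96 (adjusted p = 0.0111), and Tlr3 was called for vehicle-treated mice only (1.09, adjusted p = 0.0494). Mavs, through which RIG-I and MDA5 signal, was at 21.9 to 30.8 CPM in the 9 mice and was not called.

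Of 15 negative regulators, a list that also holds Isg15 and Usp18, 3 were called higher and 1 lower in vehicle-treated mice, and 4 lower, Isg15 and Usp18 among them, and 3 higher with TD139. Isg15 and Usp18 are counted among the 39 genes already. The median log2 fold changes of the 15 were -0.04 and -0.20, beside -0.00175 and -0.02 over all genes. Socs3, an inhibitor of JAK kinases, was at 3.26, 5.39 and 4.91 CPM in naïve, 15.8, 15.9 and 48.2 CPM in vehicle-treated and 6.48, 3.48 and 3.20 CPM in TD139-treated mice (adjusted p = 0.026 and 0.0084). Pias3, an inhibitor of STAT proteins, moved the other way, with log2 fold changes of -0.49 (adjusted p = 0.0351) and 0.63 (adjusted p = 0.00631). Of 49 further interferon-stimulated genes, 35 were tested, with 11 called higher in vehicle-treated mice and 19 lower with TD139, and medians of 1.23 and -1.21. Of these 35, 4 were tested only through the vehicle-treated mice, with 1 and 2 of them called. The most abundant of these, Tdrd7, was at 476 to 522 CPM in naïve and 242 to 423 CPM in vehicle-treated mice (adjusted p = 0.0847).

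Microglia markers moved with the interferon-stimulated genes. Of 11 markers, 8 were called higher in vehicle-treated mice and 8 lower with TD139, in both cases including Fcrls and Ptprc, which were tested only through the vehicle-treated mice. Their summed level was 44.5 to 53.3 CPM in naïve mice, 161, 139 and 188 CPM in vehicle-treated mice 1, 2 and 3, and 89.3, 45.5 and 37.1 CPM in TD139-treated mice 1, 2 and 3. As for the interferon-stimulated genes, vehicle-treated mouse 3 and TD139-treated mouse 1 were the highest of their groups. The step in vehicle-treated mouse 3 was smaller for the microglia markers, at a median of 1.18 times the mean of the other two mice (range 0.31 to 1.93), beside 2.14 times for the interferon-stimulated genes. For TD139-treated mouse 1 the order was the opposite, with a median of 2.51 times the mean of the other two mice for the microglia markers and 1.82 times for the interferon-stimulated genes.

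**Figure D5:**
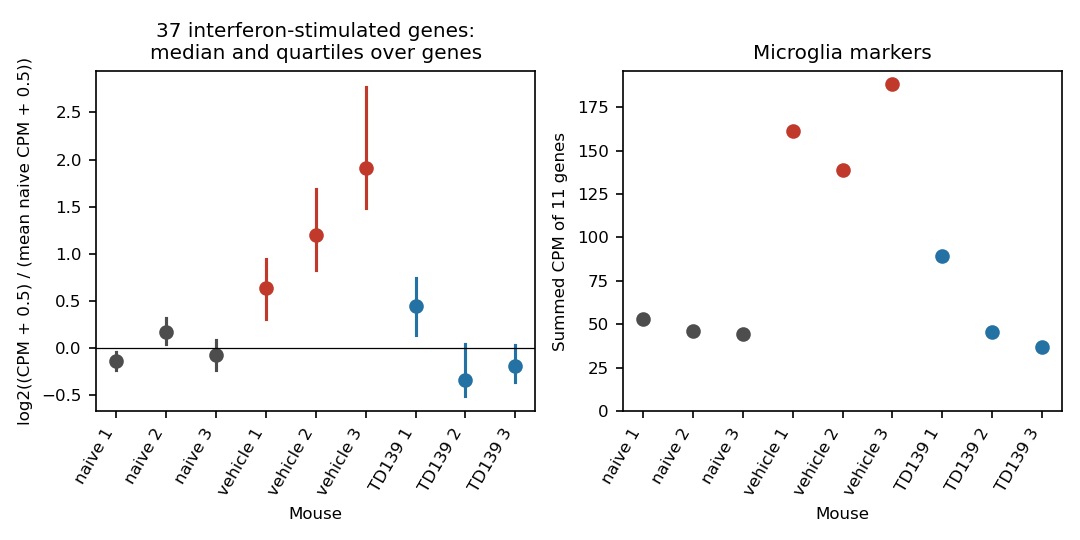
Left, the median (point) and quartiles (line) over the 37 tested genes of log2 of CPM + 0.5 over the mean naïve CPM + 0.5 in each mouse; right, the summed CPM of 11 microglia markers. The interferon-stimulated genes lie at 0.64, 1.2 and 1.92 in the vehicle-treated mice, whereas the microglia sum is 161, 139 and 188 CPM in the same animals.

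Markers of T and NK cells and of neutrophils were near the floor. Of 9 markers of T and NK cells, 5 to 6 had 0 reads in every mouse of a group, and their summed level was 0.188 to 0.873 CPM. The 5 neutrophil markers summed to at most 0.437 CPM. Of 5 markers of plasmacytoid dendritic cells, the strongest makers of type I interferon, only Siglech, which microglia share, and Bst2, itself 1 of the 39 genes, were tested. The 8 markers of monocytes and macrophages summed, with Lyz2 as most of the sum in vehicle-treated mice, to 1.65 to 2.94 CPM in naïve, 95.1, 49.3 and 98.2 CPM in vehicle-treated and 28.2, 1.81 and 1.86 CPM in TD139-treated mice. Of the 4 tested, Ms4a7, which reached the minimum only through the vehicle-treated mice, was called higher in vehicle-treated mice (adjusted p = 0.0324) and lower with TD139 (adjusted p = 0.0377), at 0, 0 and 0.0733 CPM in naïve, 1.54, 0.565 and 2.89 CPM in vehicle-treated and 0.519, 0 and 0.0395 CPM in TD139-treated mice. Ccr2 had 0 reads in naïve mice and at most 0.318 CPM elsewhere, whereas Lyz2 was at 92.4, 44.1 and 93.9 CPM in vehicle-treated mice and 26.8 CPM in TD139-treated mouse 1, beside 0.696 to 1.92 CPM in the naïve and the other TD139-treated mice. Müller glia markers summed to 4856 to 5636 CPM in naïve, 7494 to 8187 CPM in vehicle-treated and 5099 to 6762 CPM in TD139-treated mice, with 5 of 8 called higher in vehicle-treated mice and 4 lower with TD139. Markers of the retinal pigment epithelium summed to 99.9 to 242 CPM in naïve, 208 to 433 CPM in vehicle-treated and 120 to 173 CPM in TD139-treated mice, with 2 of 4 tested called lower with TD139. Endothelial markers summed to 243 to 314, 390 to 561 and 287 to 541 CPM in the same order of groups, with 1 of 7 called lower with TD139. The part of these cells in the levels of the interferon-stimulated genes was not tested.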

How the data were processed

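Polyadenylated RNA of single retinal samples was sequenced as single reads on 2 flow cells. The authors deposited, per mouse and flow cell, whole-number read counts per gene made with BaseSpace RNA Express. The study's data statement speaks of normalized counts, but every deposited value was whole and the median-of-ratios size factors of the 18 runs ran from 0.876 to 1.15, where scaled runs would all lie near the same value, so they were used as unscaled counts. The submitters' processing notes name the mm10 build. The study names a stranded library kit, but the annotation and the strand setting of the counting are not given in the sources used here. The 2 runs of each of the 9 mice were summed (chi-square per degree of freedom 1.63 to 1.80 between runs, 16.75 to 73.12 between mice of a group). Reads without a gene (16.5 to 22.8%) were left out of library sizes. edgeR 4.0.16 in R 4.3.3 (filterByExpr, TMM, robust quasi-likelihood F test, 3 groups in 1 fit) was run on the whole table, and p-values were adjusted by Benjamini and Hochberg over 15196 genes. They measure the spread between mice. An exact permutation test of 3 against 3 mice cannot go below 0.1. CPM are TMM-scaled, and a pseudocount of 0.5 CPM was used for values per mouse. Positions and lengths came from GENCODE M21 (GRCm38), which held 98.4% of the symbols. Alternatives were DESeq2 1.42.0, voom of limma 3.58.1, RLE or library size, other filters, single flow cells, only the groups compared, the replicate number as a block, an offset for transcript length and GC content (splines with 4 degrees of freedom) and each mouse left out. The steps were tested on simulated data. The genes, lists, groups by role and tests were chosen with earlier results of these data known. Per role, values in each mouse are given for up to 3 genes with the lowest adjusted p and 2 with the highest level, and other genes of interest were added after their values were seen. Some results of the gene lists are not reported here.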

Additional observations from a re-analysis of the deposited data

How the results depend on the processing

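No gene changed direction while called under any of the 21 alternatives. Of 2288 values of single genes, 1976 kept their side of the threshold, 251 lost it and 61 gained it. The number called higher for vehicle-treated against naïve mice, 18 in the main analysis, was 31 with DESeq2 and 13 to 26 under the other settings that left out no single mouse and had no block. It ranged from 0 to 28 when 1 mouse was left out, and the median log2 fold change from 1.26 to 1.89. The number lower for TD139-treated against vehicle-treated mice, 27 in the main analysis, was 21 to 28 under the settings without a block and 4 to 30 when 1 mouse was left out, with medians from -2.09 to -1.16. For TD139-treated against naïve mice it was 0 under every setting except limma voom, with 1 higher and a median of -0.29 in place of 0.07, and the median ranged from -0.21 to 0.28 when 1 mouse was left out. With library size in place of TMM, the median of all genes moved by under 0.1 on the log2 scale, to 0.09 and -0.10, and the share of higher among all calls rose from 62.95 to 77.32% for vehicle-treated against naïve mice and fell from 51.6 to 39.18% for TD139-treated against vehicle-treated mice, with 20 and 27 of these genes called. The length and GC offset lowered the number of all genes called lower with TD139 from 2455 to 1601.

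With the replicate number as a block, 5 genes were called higher for vehicle-treated against naïve mice and 19 lower with TD139, all of them among the 18 and 27, and with the block and the offset together 11 and 12. Deviations from the group means correlated at -0.26 to 0.28 in 9 pairs of mice of the same number and at -0.28 to 0.23 in the 18 others. Of 9 mice, 2 correlated best with their own number. Whether the numbers pair the mice cannot be told from this, since the deviations of the 3 mice of a group sum to 0 and depend on each other. The causes of these shifts were not tested. With 3 mice a group and at most 11 reads of Oas1a, Ifi44, Zbp1 and Oas2 in any naïve mouse, fold changes of low genes are imprecise.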
